A study of Danio rerio with 17 samples.

Results

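Aminoacyl-tRNA synthetases are the enzymes that load each tRNA with its amino acid, and their mRNAs were followed here in the adult zebrafish liver after a local freezing injury. The members were chosen by the gene description alone, as every entry of the count table whose description contains tRNA synthetase or tRNA ligase. It gave 23 members among 8513 entries. The rule itself uses no measured value, but it was set with earlier results of these data known. Of the 23, 18 were placed with the cytosolic synthetases, and 3, *cars2*, *iars2* and *vars2*, with the mitochondrial ones because their symbols end in 2. The remaining 2, *aimp1* and *aimp2*, are described as proteins that interact with the synthetase complex, carry no charging activity and were kept apart as scaffold proteins. All 23 passed the filter on low counts. The cytosolic entries were *cars*, *dars*, *eprs*, *farsa*, *farsb*, *gars*, *hars*, *iars*, *kars*, *larsa*, *larsb*, *mars*, *nars*, *qars*, *rars*, *sars*, *vars* and *wars*, each named after the amino acid or acids it handles. Synthetases for the amino acids missing from this list were not analysed here.

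Most synthetases recognise 1 amino acid and the tRNAs that read its codons. Translation in the cytosol and in the mitochondrion draws on separate sets of enzymes encoded in the nucleus. In animals, several of the cytosolic enzymes are held together in a multisynthetase complex with the scaffold proteins Aimp1, Aimp2 and Eef1e1. In mammals, the genes for the lysine and glycine enzymes each encode both a cytosolic and a mitochondrial form, so that *kars* and *gars* need not be purely cytosolic. Many cytosolic synthetase genes are known in mammals as targets of ATF4, the transcription factor of the integrated stress response, which also raises genes of amino acid synthesis and uptake.

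The livers came from adult *Tg(fabp10a:NLS-mCherry)* zebrafish, in which the *fabp10a* promoter drives a nuclear red reporter in hepatocytes of every group, sham included. A probe cooled in liquid nitrogen was laid on the ventral lobe, or a thawed probe in the sham operation. RNA was taken from pooled liver tissue of sham fish (n = 5). Tissue of injured fish was taken 1, 3 or 7 days after cryoinjury (dpci, n = 4 at each time). The paper describes sequencing the injured part of the ventral lobe and also the contralateral lobe, with injured border and other lobes pooled apart. A supplementary figure calls its sham and injured samples ventral lobes. The labels give neither the lobe nor the ages of these fish, and the study's sources describe the samples as replicates of pooled livers in one place and as technical replicates in another, with numbers that do not match. The p-values therefore measure only the spread between these samples, which may be technical. The counts summed to 4743533 to 6800961 per sample. All 12 hepatocyte markers examined, from *fabp10a* to *uox*, had a count above 0 in every sample. In sham and at 7 dpci, the lowest samples for *ambp* and *fgg* lay far below the means of their groups. The labels give each sample a numbered code, whose meaning is not stated, and the number 31 occurs at both 3 and 7 dpci. In these codes sham replicates 1 to 4 carry 61 to 64, sham replicate 5 carries 1 and the injured samples 9 to 33. At 1 dpci, replicates 1 and 2 and replicates 3 and 4 have neighbouring code numbers and correlated across genes at r = 0.965 and 0.969. The remaining pairs of that group reached 0.882 to 0.899. These correlations are over genes, which are no replicates, and whether the neighbouring samples share fish is not stated.

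Levels are given as CPM, the counts scaled to a common library size with TMM factors, which differ from the authors' CPM by the scaling factor of each library, 0.608 to 1.03 in sham and 1.199 to 1.69 at 1 dpci. The entries of the mitochondrial genome, whose ribosomal RNA is the largest single source of counts, took 43.0% to 48.2% of the sham libraries and 28.7% to 39.2% of those at 1 dpci. With TMM the log2 fold changes of all entries against sham had medians of −0.02, −0.01 and 0.04 at the 3 times. With libraries scaled by their totals alone these medians were 0.84, 0.42 and 0.36. Changes are therefore given relative to the bulk of the entries. A member was called when its p from the quasi-likelihood test of edgeR, adjusted after Benjamini and Hochberg over the 8412 entries tested, was at most 0.05. Each log2 fold change is given with its standard error (SE) and this adjusted p.

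At 1 dpci most cytosolic synthetases were higher than in sham livers. Of the 18 cytosolic entries, 11 rose and none fell, led by *kars* (6.42-fold), *nars* (5.72-fold), *eprs* (5.08-fold), *mars* (3.56-fold) and *wars* (3.45-fold). Over all entries tested, 9.43% rose and 14.5% fell by the same call. The log2 fold change was above 0 for all 18, from 0.15 for *larsa* to 2.68 for *kars*, with a median of 1.13 where all entries had a median of −0.02. With libraries scaled by their totals, all 18 lay above the median of all entries as well, and their median exceeded it by 1.15. In 14 of the 18, every 1 dpci sample lay above every sham sample, which was the case for 10.9% of all entries. At the thresholds of the study's methods, a log2 fold change of at least 1.5 and here an unadjusted P of at most 0.05, 5 of the 18 were called (*eprs*, *kars*, *mars*, *nars* and *wars*), against 5.48% of all entries. Of the mitochondrial synthetases 1 of 3 rose (*vars2*), and of the scaffold proteins 1 of 2 (*aimp1*). In bulk samples, a change in RNA per cell and a change in the share of a cell type cannot be told apart.

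**Figure D1:**
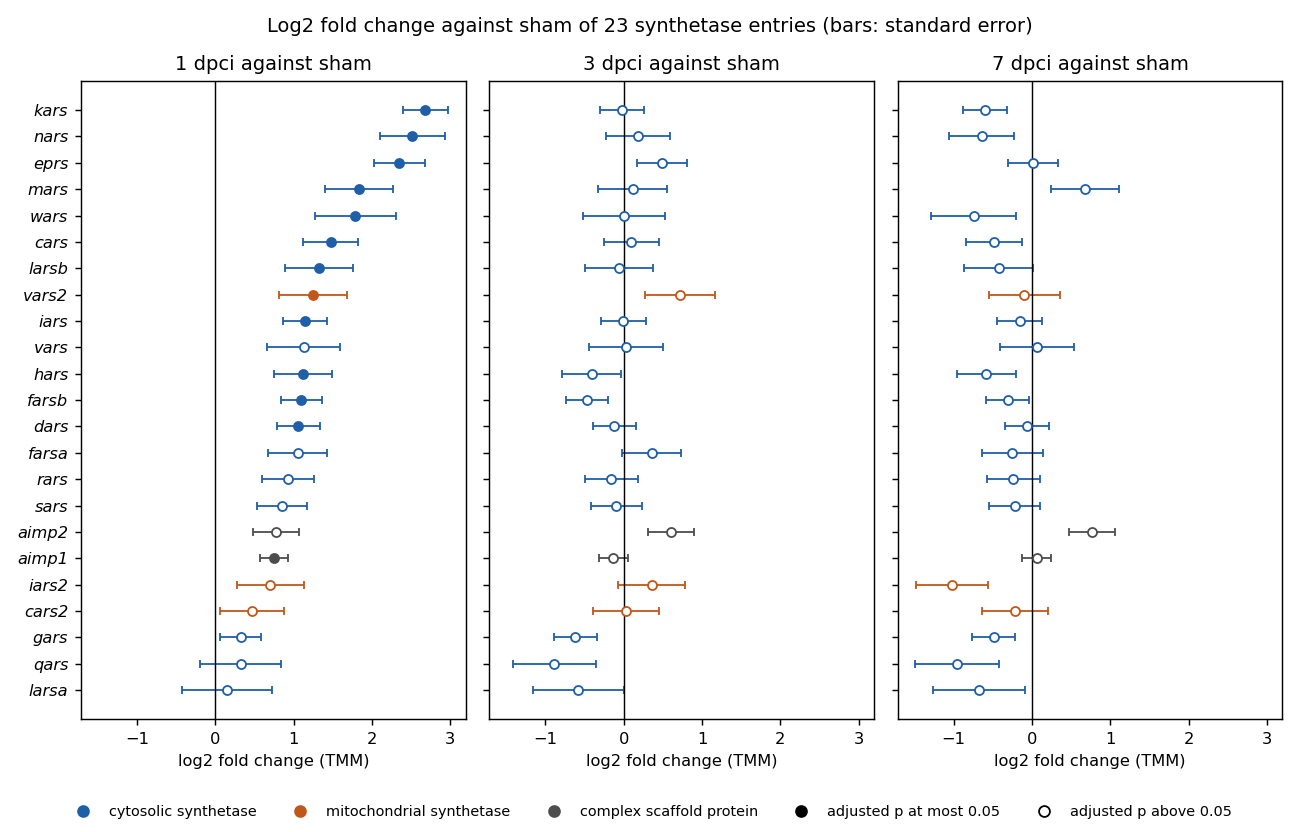
Log2 fold change of the 23 entries against sham at 1, 3 and 7 dpci (x axis, TMM-scaled counts), with the standard error as bars, in the order of the 1 dpci value. At 1 dpci all 23 points lie above 0 and 13 are filled (adjusted p at most 0.05), and at 3 and 7 dpci none is filled.

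The 11 calls did not rest equally firmly. *eprs*, *kars*, *mars* and *nars* were called in each of 27 alternative settings of the adjusted test, and these 4 were the cytosolic calls left when the 1 dpci samples were summed in their 2 neighbouring pairs. Over all entries, calls in either direction fell from 2009 to 600 with the summed pairs. With 1 sample left out at a time, the number of cytosolic calls was 8 to 14, and that over all entries 1202 to 2155. *hars* and *larsb* lost their calls without sham replicate 2 or 4 or without any single 1 dpci sample, and *wars* without sham replicate 2 or 1 dpci replicate 2. Sham replicate 5 is the sham sample with a code number apart from those of the other sham samples. Set against it alone, the 1 dpci mean of the 11 was higher by 0.27 to 2.80 on the log2 scale. This replicate is also part of the comparison with all sham samples, so these values are a description with no test.

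Among the enzymes of the multisynthetase complex, 6 of 9 were called at 1 dpci. *kars*, the lysine enzyme, measured 120.1, 84.8, 133, 93.96 and 144 CPM in the sham samples and 675, 971, 686 and 622 CPM at 1 dpci. It then measured 128, 67.1, 101 and 156 CPM at 3 dpci and 106, 75.5, 59.8 and 62.5 CPM at 7 dpci. The lowest 1 dpci sample, replicate 4, stood far above the highest sham sample, and the 3 and 7 dpci samples ran from below the sham range to just above it, where 3 dpci replicate 4 lay. *kars* had a log2 fold change of 2.68 (SE 0.29, adjusted p = 5.9e-05). Its counts made up 20.8% to 25.3% of all counts on the 18 cytosolic entries in sham, 35.8% to 46.4% at 1 dpci, 21.3% to 26.7% at 3 dpci and 18.2% to 24.7% at 7 dpci. This is a share of reads and not of molecules, since transcript lengths were not used. The cytosolic sum without *kars* was 374 ± 86.0 CPM (SD, n = 5) in sham and 1066 ± 78.2 CPM (SD, n = 4) at 1 dpci, so that the 17 others together were also higher in each 1 dpci sample than in any sham sample.

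*eprs*, which charges both glutamate and proline tRNAs with a single long protein, measured 32.3, 22.1, 26.5, 15.5 and 55.4 CPM in sham and 135, 177, 151 and 156 CPM at 1 dpci. It measured 44.01, 31.5, 47.9 and 46.6 CPM at 3 dpci and 37.1, 27.1, 19.02 and 39.3 CPM at 7 dpci. Sham replicate 5 was the highest sham sample, well below each sample at 1 dpci. *eprs* had a log2 fold change of 2.35 (SE 0.33, adjusted p = 0.000232). *mars*, the methionine enzyme needed for translation to start as well as for elongation, measured 5.72, 7.27, 4.37, 1.14 and 7.299 CPM in sham and 15.6, 12.7, 25.4 and 20.2 CPM at 1 dpci. At 3 dpci it measured 4.82, 4.71, 5.77 and 7.101 CPM and at 7 dpci 15.9, 6.56, 4.49 and 6.03 CPM. The groups at sham and 1 dpci did not overlap, and 7 dpci replicate 1 alone of the later samples reached the 1 dpci range. *mars* had a log2 fold change of 1.83 (SE 0.43, adjusted p = 0.00721).

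*iars*, the isoleucine enzyme, measured 13.8, 15.00, 19.5, 13.2 and 35.5 CPM in sham and 38.4, 44.5, 42.7 and 46.1 CPM at 1 dpci. Sham replicate 5 came close to the lowest 1 dpci sample, while the other sham samples stayed at about the level of the later time points, 15.3 to 25.99 CPM at 3 dpci and 13.9 to 20.8 CPM at 7 dpci. *iars* had a log2 fold change of 1.14 (SE 0.28, adjusted p = 0.00924). *dars*, the aspartate enzyme, behaved in the same way, with 24.3, 32.7, 22.4, 27.4 and 47.8 CPM in sham and 48.1, 62.2, 73.5 and 74.2 CPM at 1 dpci. Its sham replicate 5 lay just under the lowest 1 dpci sample. *dars* had a log2 fold change of 1.06 (SE 0.28, adjusted p = 0.0122).

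The table lists 2 leucine entries, *larsa* and *larsb*, between which reads could be shared if the sequences are alike, so that their separate values are uncertain. *larsb* measured 16.4, 6.37, 13.4, 7.75 and 11.96 CPM in sham and 29.1, 22.2, 33.3 and 27.4 CPM at 1 dpci, with no overlap. It measured 7.75, 5.89, 15.3 and 13.96 CPM at 3 dpci and 18.6, 4.43, 6.198 and 3.93 CPM at 7 dpci. *larsb* had a log2 fold change of 1.32 (SE 0.43, adjusted p = 0.035). *larsa* measured 10.3, 2.73, 3.498, 4.56 and 3.85 CPM in sham and 9.403, 6.68, 1.08 and 5.27 CPM at 1 dpci, and its groups overlapped throughout. Its log2 fold change was 0.15 (SE 0.57, adjusted p = 0.872) and turned negative without sham replicate 2 (−0.01) or 1 dpci replicate 1 (−0.22).

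The remaining enzymes of the complex did not pass the test at 1 dpci. *rars*, the arginine enzyme, had a log2 fold change of 0.93 (SE 0.33, adjusted p = 0.0518). It measured 8.41 to 22.5 CPM in sham and 22.1 to 34.98 CPM at 1 dpci. The lowest 1 dpci sample fell just below the highest sham sample. *rars* narrowly missed the test and was called in 10 of the 27 alternative settings. DESeq2, edgeR's exact test and scaling by library totals, which shifts all entries upward, were among them. *qars*, the glutamine enzyme, measured 32.8, 8.87, 20.99, 11.2 and 13.4 CPM in sham and 19.1, 22.7, 22.5 and 23.1 CPM at 1 dpci. Sham replicate 1 exceeded each 1 dpci sample, and the log2 fold change was 0.32 (SE 0.52, adjusted p = 0.681). At 3 dpci *qars* ranged from 4.82 to 15.6 CPM and at 7 dpci from 2.39 to 21.8 CPM.

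**Figure D2:**
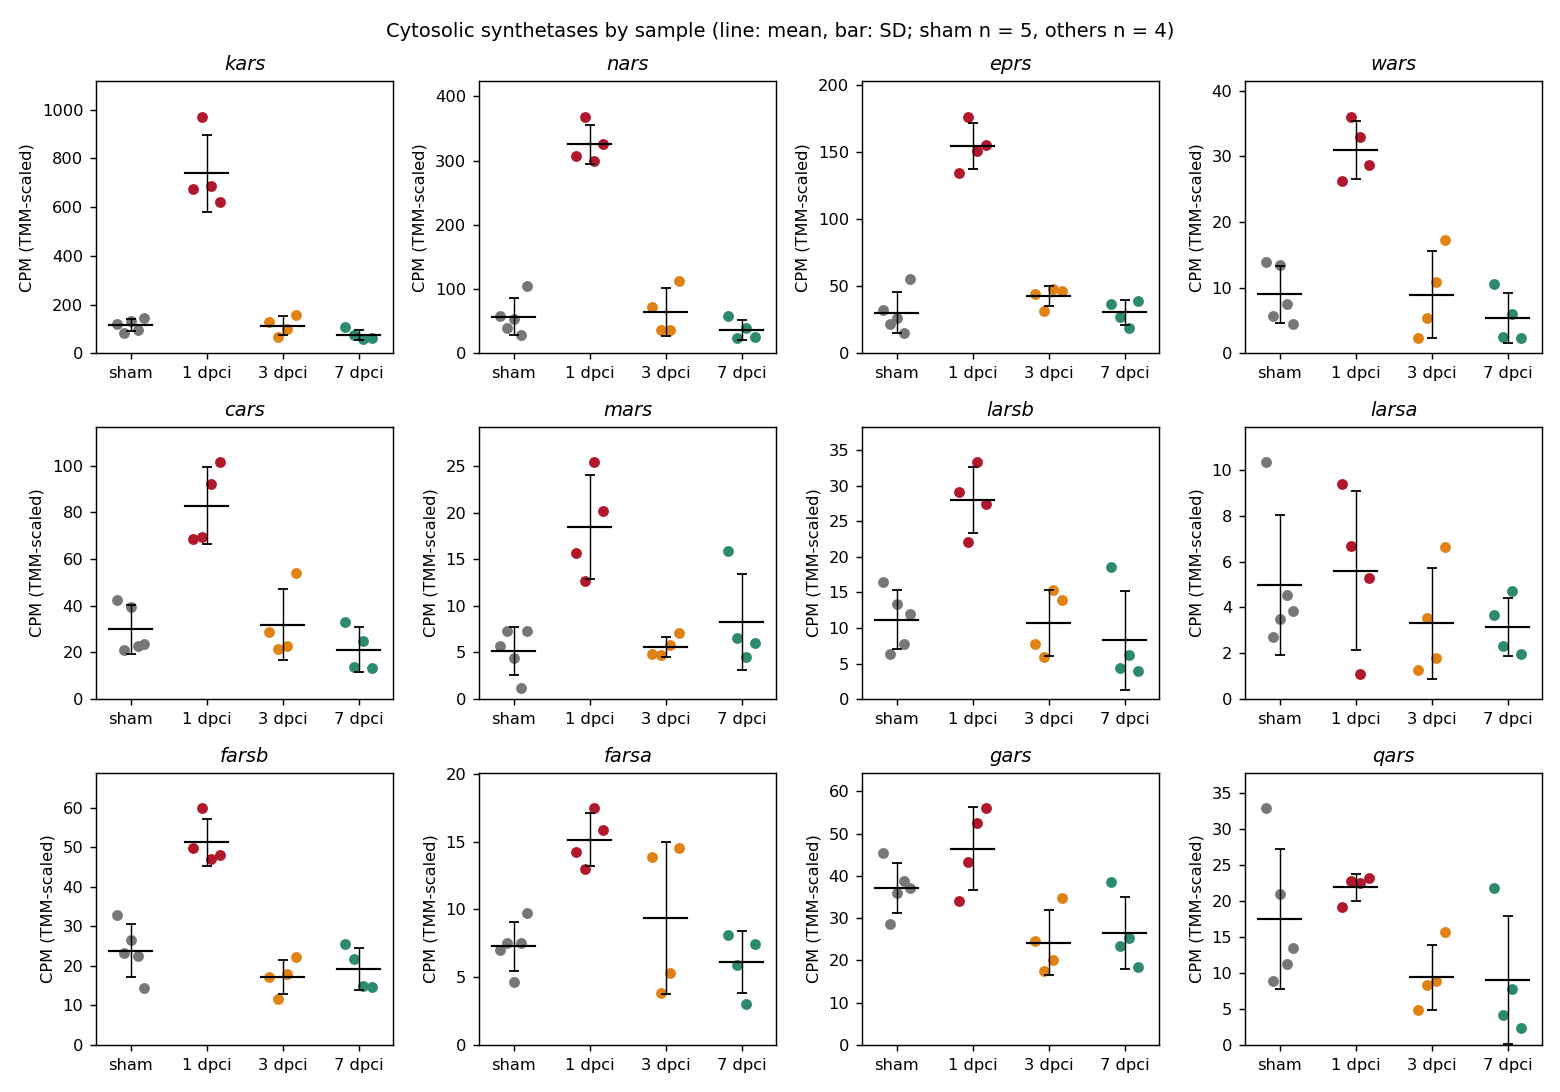
CPM after TMM scaling (y axis, from 0) of 12 cytosolic synthetases in each sample of sham (n = 5) and 1, 3 and 7 dpci (n = 4 each), with the mean as a line and the SD as a bar. For *kars*, *nars*, *eprs*, *wars*, *cars*, *mars*, *larsb*, *farsb* and *farsa* every 1 dpci point lies above every sham point, and for *larsa*, *gars* and *qars* the groups overlap.

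Outside the complex, 5 of 9 enzymes were called at 1 dpci. *nars*, the asparagine enzyme, measured 58.5, 39.3, 53.1, 29.2 and 104 CPM in sham and 307, 368, 299.8 and 325 CPM at 1 dpci. It measured 72.7, 36.2, 35.7 and 113 CPM at 3 dpci and 57.98, 23.3, 39.3 and 24.7 CPM at 7 dpci. Sham replicate 5 and 3 dpci replicate 4 were the highest of their groups and both lay far below the 1 dpci samples. *nars* had a log2 fold change of 2.52 (SE 0.42, adjusted p = 0.000673). *nars* took 7.61% to 17.5% of the counts on the cytosolic entries in sham and 17.02% to 18.9% at 1 dpci.

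*wars*, the tryptophan enzyme, measured 13.8, 5.68, 13.4, 7.53 and 4.46 CPM in sham and 26.2, 36.04, 32.98 and 28.6 CPM at 1 dpci, with no overlap. Its later values were scattered, 2.31, 5.299, 10.9 and 17.3 CPM at 3 dpci and 10.5, 2.46, 5.98 and 2.39 CPM at 7 dpci. *wars* had a log2 fold change of 1.79 (SE 0.52, adjusted p = 0.0207). In mammals the tryptophan enzyme is also induced by interferon-gamma. *cars*, the cysteine enzyme, measured 42.4, 20.9, 39.6, 22.6 and 23.5 CPM in sham and 68.4, 69.4, 92.1 and 101 CPM at 1 dpci. The lowest 1 dpci sample was above the highest sham sample, and 3 dpci replicate 4, at 54.1 CPM, was the only later sample above the sham range. *cars* had a log2 fold change of 1.47 (SE 0.35, adjusted p = 0.00745).

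Phenylalanine is charged by an enzyme made of an alpha chain, from *farsa*, and a beta chain, from *farsb*. *farsb* measured 32.8, 23.2, 26.5, 22.6 and 14.4 CPM in sham and 49.9, 59.9, 47.2 and 47.98 CPM at 1 dpci. *farsb* had a log2 fold change of 1.099 (SE 0.27, adjusted p = 0.00805). *farsa* measured 4.66 to 9.73 CPM in sham and 13.01 to 17.5 CPM at 1 dpci, also without overlap. Its log2 fold change of 1.05 (SE 0.38) was of the same size as that of *farsb*, but it narrowly missed the test (adjusted p = 0.0516) and was called by DESeq2 (adjusted p = 0.0326). Within samples, the log2 ratio of *farsb* to *farsa* counts was 1.69 ± 0.738 (SD, n = 5) in sham and 1.76 ± 0.330 (SD, n = 4) at 1 dpci, a difference of 0.07 (exact two-sided permutation test, p = 0.921).

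*hars*, the histidine enzyme, measured 38.00, 13.6, 41.97, 22.6 and 33.3 CPM in sham and 56.9, 69.4, 67.3 and 66.7 CPM at 1 dpci. Each 1 dpci sample was above the sham range. *hars* had a log2 fold change of 1.12 (SE 0.37, adjusted p = 0.0372). *sars* (serine) and *vars* (valine) were also higher in each 1 dpci sample than in any sham sample without passing the test. Their log2 fold changes were 0.85 (SE 0.32, adjusted p = 0.0640) and 1.13 (SE 0.47, adjusted p = 0.0863). Of the 27 alternative settings, 7 called *sars* and 4 called *vars*, for both with scaling by library totals among them. The *vars* samples measured 10.5, 7.05, 9.62, 6.61 and 8.52 CPM in sham and 18.2, 15.3, 19.5 and 21.1 CPM at 1 dpci. *gars*, the glycine enzyme, measured 45.4, 28.6, 35.9, 38.8 and 37.1 CPM in sham and 33.97, 43.2, 52.6 and 56.01 CPM at 1 dpci. Its groups overlapped, with a log2 fold change of 0.32 (SE 0.27, adjusted p = 0.398).

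Synthetases fall into class I and class II by the fold of their catalytic domain. At 1 dpci 5 of 9 class I entries and 5 of 8 class II entries were called, with median log2 fold changes of 1.14 and 1.08, and *eprs*, which joins a domain of each class, was called as well. The 9 complex members had a median of 1.14 and the 9 enzymes outside it 1.12. Neither grouping was tested.

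Both scaffold proteins had smaller log2 fold changes at 1 dpci than 15 of the 18 cytosolic enzymes, a difference that was not tested. *aimp1* measured 28.96, 21.6, 23.6, 24.9 and 30.8 CPM in sham and 40.9, 47.6, 44.04 and 41.8 CPM at 1 dpci. It was narrowly spread, and no sample at 3 dpci (21.3 to 25.04 CPM) or 7 dpci (25.7 to 30.1 CPM) reached the 1 dpci range. *aimp1* had a log2 fold change of 0.75 (SE 0.18, adjusted p = 0.00839). That call was lost when the 1 dpci samples were summed in pairs (adjusted p = 0.0643). *aimp2* measured 109.9, 117, 76.7, 113 and 138 CPM in sham and 156, 202, 201 and 199.8 CPM at 1 dpci. It measured 267, 128, 160.1 and 121 CPM at 3 dpci and 172, 162, 126 and 295 CPM at 7 dpci. Every injured time point held samples above the sham range, and the log2 fold changes against sham were 0.77, 0.61 and 0.77 at 1, 3 and 7 dpci, none of them called (adjusted p = 0.0634, 0.425 and 0.516). The third scaffold protein, *eef1e1*, is not a member by its description and had a log2 fold change of 0.14 at 1 dpci (SE 0.53, adjusted p = 0.875).

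The mitochondrial synthetases were measured on few reads, with 4 to 74 counts per sample. *vars2*, the mitochondrial valine enzyme, measured 3.32, 0.909, 1.17, 2.51 and 3.45 CPM in sham and 7.58, 7.38, 2.93 and 4.14 CPM at 1 dpci. The 1 dpci replicates 1, 2 and 4 were above the sham range and replicate 3 within it. *vars2* had a log2 fold change of 1.25 (SE 0.44, adjusted p = 0.0483). It was no longer called in a fit of these groups alone (adjusted p = 0.0734) or with 12 of the 17 samples left out singly, the call remaining only without sham replicate 1 or 5, 1 dpci replicate 3 or 7 dpci replicate 1 or 2. *iars2* (isoleucine) measured 2.21, 2.27, 4.96, 5.701 and 3.04 CPM in sham and 3.18, 5.27, 8.03 and 7.03 CPM at 1 dpci, with a log2 fold change of 0.70 (SE 0.42, adjusted p = 0.237). *cars2* (cysteine) measured 3.32, 4.09, 2.04, 1.596 and 4.46 CPM in sham and 3.18, 6.505, 3.69 and 4.02 CPM at 1 dpci, with a log2 fold change of 0.47 (SE 0.41, adjusted p = 0.419). Both overlapped with sham. Summed over the 3 entries, the level was 7.27 to 10.9 CPM in sham and 13.95 to 19.2 CPM at 1 dpci, where the cytosolic sum went from 363 to 596 CPM to 1628 to 2094 CPM.

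Whether the cytosolic enzyme changed by more than its mitochondrial partner was tested within samples, as the log2 ratio of their counts, which no scaling affects. The ratio of *cars* to *cars2* was 3.25 ± 0.850 (SD, n = 5) in sham and 4.26 ± 0.586 (SD, n = 4) at 1 dpci, a difference of 1.01 (exact two-sided permutation test, p = 0.0952). For *iars* to *iars2* it was 2.38 ± 0.861 and 2.93 ± 0.497 (exact p = 0.286). For *vars* to *vars2* it was 1.996 ± 0.793 and 1.84 ± 0.813, with the sign of the difference turned (exact p = 0.730). The ratio of *larsb* to *larsa* was 1.22 ± 0.533 and 2.64 ± 1.52 (exact p = 0.0635), raised most by 1 dpci replicate 3, where *larsa* was low. With the *farsb* to *farsa* ratio these were 5 tests, their Benjamini-Hochberg adjusted values were 0.238 to 0.921, and the smallest p that 4 against 5 samples allow is 0.0159. A difference between cytosolic and mitochondrial partners was not detected with these samples, and these p-values do not show that the partners changed alike.

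**Figure D3:**
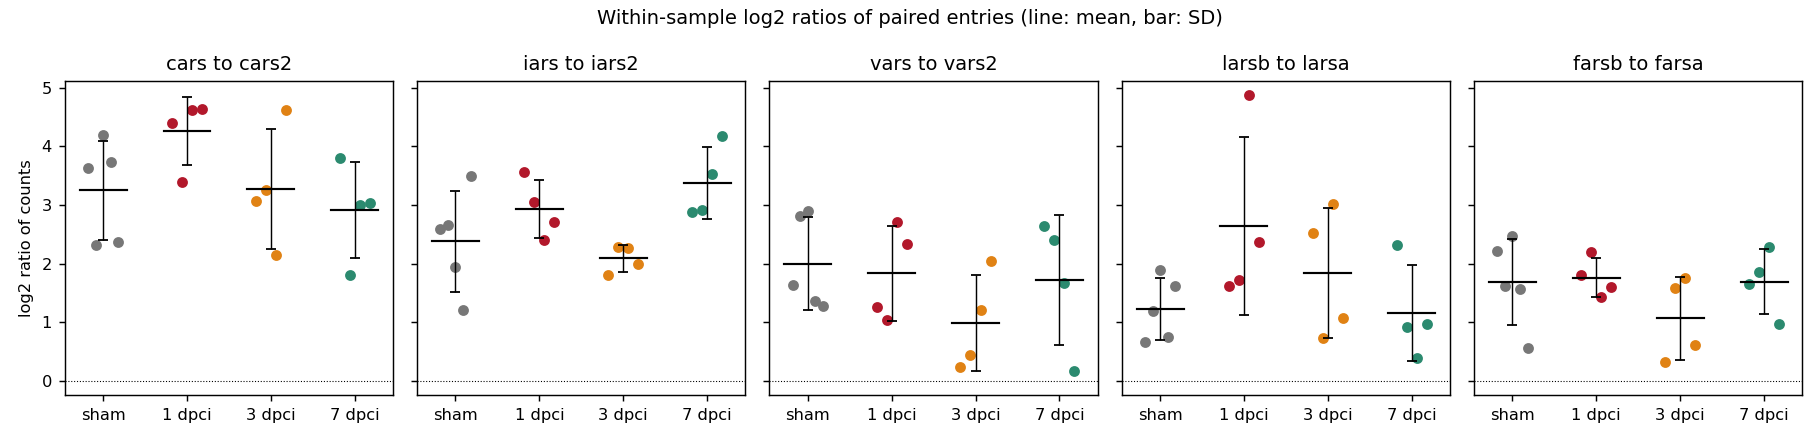
Within-sample log2 ratio of counts (y axis, pseudocount 0.5) for 3 cytosolic to mitochondrial pairs, the leucine pair and the phenylalanine chains, with the mean as a line and the SD as a bar (sham n = 5, others n = 4). The sham and 1 dpci points overlap in all 5 panels.

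At 3 dpci no member was called against sham, where 0.0119% of all entries were (1 of 8412), and every one of the 23 overlapped with sham, while 2.28% of all entries lay above and 1.88% below every sham sample. The cytosolic median log2 fold change was −0.04, from −0.88 for *qars* to 0.49 for *eprs*. Only *gars* had an unadjusted P of at most 0.05 (log2 fold change −0.62, SE 0.27, adjusted p = 0.382), where 11.8% of all entries reached it. *kars* stood at −0.03 (SE 0.28) and *nars* at 0.18 (SE 0.41). DESeq2 and edgeR's exact test called 160 and 130 of all entries and also no member. The 3 dpci replicate 4 was the highest sample of its group for 13 of the 18 cytosolic entries.

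At 7 dpci again no member was called against sham, and no other entry was, while 9.08% had an unadjusted P of at most 0.05. *kars*, *iars2* and *aimp2* were among the latter, at −0.60 (SE 0.28, adjusted p = 0.550), −1.02 (SE 0.45, adjusted p = 0.530) and 0.77 (SE 0.29, adjusted p = 0.516). All 23 overlapped with sham, where 0.642% of all entries lay above and 0.654% below every sham sample. Of the 18 cytosolic entries 15 had a negative log2 fold change, with a median of −0.37. On the authors' scale of library totals 9 of the 18 did, with a median of −0.02, so that a low level at 7 dpci holds only relative to the other entries. *mars* was the main exception, at 0.67 (SE 0.44, adjusted p = 0.666), where 7 dpci replicate 1 measured 15.9 CPM and the others 4.49 to 6.56 CPM. This replicate was the highest sample of its group for 15 of the 18 cytosolic entries. DESeq2 and edgeR's exact test called no member here either. Over all entries DESeq2 called 8 and the exact test 2. Between 7 and 3 dpci no entry was called, members included, while 7.36% had an unadjusted P of at most 0.05, among them *iars2* (log2 fold change −1.38, SE 0.47, adjusted p = 0.522), and DESeq2 called 37 entries and the exact test 11, none of them a member.

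Set against 1 dpci, the cytosolic synthetases fell at both later times, and all 18 had a negative log2 fold change with either scaling. These comparisons share the 1 dpci samples with that against sham, so they do not stand as separate evidence of a rise. At 3 dpci 11 of 18 were called lower, against 3.91% of all entries, with a median of −1.29 where all entries had 0.04. In 14 of the 18, every 3 dpci sample lay below every 1 dpci sample, as did 12.6% of all entries. *kars* fell by 2.71 on the log2 scale (SE 0.31, adjusted p = 0.000218), *nars* by 2.33 (SE 0.45, adjusted p = 0.00396) and *eprs* by 1.86 (SE 0.35, adjusted p = 0.00338). *gars*, which had not risen by the test at 1 dpci, was among the 11, at −0.94 (SE 0.28, adjusted p = 0.0423), a call lost without sham replicate 4, 3 dpci replicate 1, 2 or 3 or any single 1 dpci sample, and *larsb* was not (adjusted p = 0.0601). *aimp1* was called lower, and no mitochondrial entry reached even an unadjusted P of 0.05. The number of cytosolic calls was 6, 4 and 5 without 3 dpci replicate 1, 2 or 3, 7 without 1 dpci replicate 2, 3 or 4, and 4 with the 1 dpci samples summed in pairs. Calls over all entries, in either direction, also fell, from 973 to 521, 561 and 545 without these 3 dpci samples. They were 468, 736 and 692 without these 1 dpci samples and 144 with the summed pairs.

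At 7 dpci 14 of 18 were lower than at 1 dpci, against 8.45% of all entries, with a median of −1.30. The largest falls were those of *kars* (−3.28, SE 0.32, adjusted p = 4.92e-05), *nars* (−3.16, SE 0.46, adjusted p = 0.000502) and *wars* (−2.53, SE 0.58, adjusted p = 0.00616). Not called were *larsa*, *mars*, *qars* and *vars*. *iars2* measured 2.75, 2.13, 1.496 and 0.702 CPM at 7 dpci, below each sample at 1 and 3 dpci, and fell by 1.73 (SE 0.47, adjusted p = 0.0155). *vars2* fell by 1.34 (SE 0.47, adjusted p = 0.0469), a call lost with 11 of the 17 samples left out singly and remaining without sham replicate 1, 2, 3 or 5, 1 dpci replicate 3 or 7 dpci replicate 1. With the 1 dpci samples summed in pairs, 8 cytosolic and 0 mitochondrial entries remained called. Over all entries, calls in either direction fell from 1937 to 535.

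**Figure D4:**
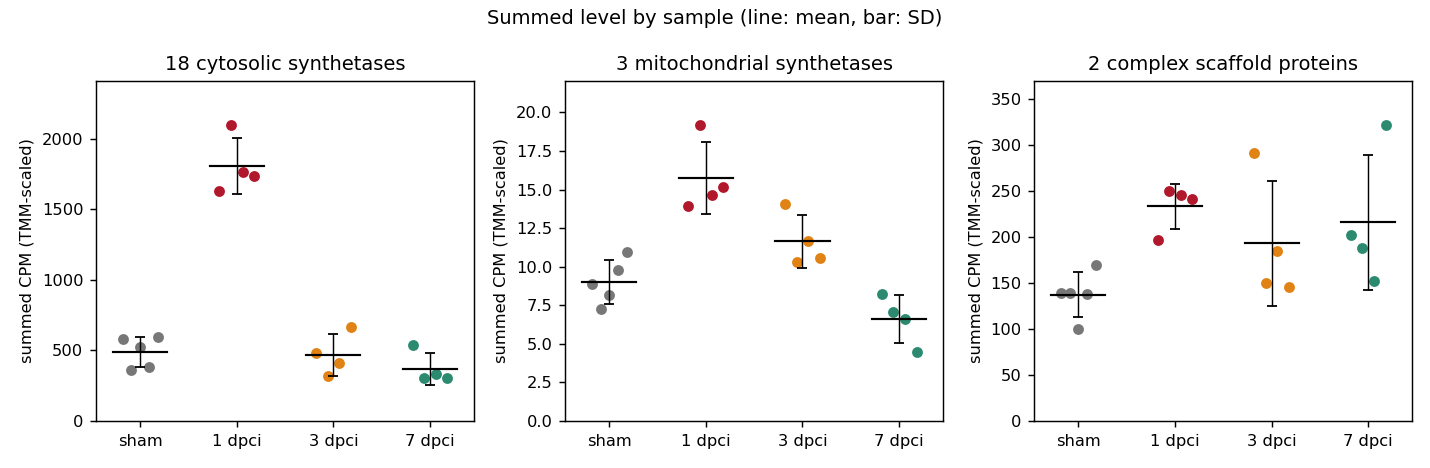
Summed CPM after TMM scaling (y axis, from 0) of the 18 cytosolic synthetases, the 3 mitochondrial synthetases and the 2 scaffold proteins in each sample, with the mean as a line and the SD as a bar (sham n = 5, others n = 4). The cytosolic sum is 1628 to 2094 CPM at 1 dpci and at most 664 CPM in any other sample, while the mitochondrial and scaffold sums cover smaller relative ranges.

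Among other genes of tRNA charging, 2 of 14 rose at 1 dpci and 1 fell, where 9.43% of all entries rose and 14.5% fell. Of 21 listed genes that deliver, proofread or modify charged tRNAs, 14 were in the table, 2 of them being the scaffold proteins, and their median log2 fold change at 1 dpci was 0.32. *xpot*, the exportin that carries tRNA out of the nucleus, measured 35.2, 20.9, 9.91, 20.8 and 30.8 CPM in sham and 80.4, 84.2, 80.5 and 89.5 CPM at 1 dpci. It rose in every sample above the sham range (log2 fold change 1.83, SE 0.38, adjusted p = 0.00328) and was with *aimp1* the only one called higher. *sephs2*, which makes the selenium donor for selenocysteine tRNA, fell by 1.99 (SE 0.35, adjusted p = 0.000927), from 155, 140.0, 169.6, 103 and 45.6 CPM to 24.9, 30.2, 35.9 and 32.2 CPM.

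The integrated stress response list, which includes Atf4 and its target genes in other species, had 22 of 35 genes in the table. At 1 dpci 10 rose and 1, *shmt2*, fell, with a median of 1.04, where 9.43% of all entries rose and 14.5% fell. *atf4a* itself measured 50.4, 47.5, 32.4, 32.8 and 52.9 CPM in sham and 217, 251, 137 and 120.3 CPM at 1 dpci. It was higher in 1 dpci replicates 1 and 2 than in replicates 3 and 4. *slc3a2b*, the heavy chain of amino acid transporters, had a log2 fold change of 3.59 (SE 0.59, adjusted p = 0.000621), and *chac1*, which degrades glutathione, one of 2.72 (SE 0.47, adjusted p = 0.000865). Against 1 dpci, 11 of the 22 were called lower and 1 higher at 3 dpci, and 12 lower and 2 higher at 7 dpci. Of all entries, 3.91% were called lower at 3 dpci and 8.45% at 7 dpci.

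The machinery that uses charged tRNAs, with some genes of mitochondrial DNA and RNA, was counted in the same way, against the same 9.43% and 14.5% of all entries. Of 9 cytosolic elongation factors that were measured, 1 rose at 1 dpci (*eif5a2*, log2 fold change 1.00, adjusted p = 0.00774) and 2 fell (*eef1b2*, −0.89, adjusted p = 0.0221, and *eef1db*, −1.04, adjusted p = 0.0429), with a median of −0.63. The sign of that median depends on the scaling, since library totals move the median of all entries to 0.84. Among 58 mitochondrial ribosomal proteins 1 rose (*mrpl33*, 1.12, adjusted p = 0.00642) and 3 fell (*mrps15*, *mrpl42* and *mrpl32*), with a median of 0.09. A further list of 8 genes mixed mitochondrial translation factors with genes of mitochondrial transcription and DNA. None of these rose. *tfam*, which packages mitochondrial DNA and is no translation factor, fell (−0.79, adjusted p = 0.0304). No list member was called against sham at 3 or 7 dpci. None of these lists was tested against the synthetases.

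Markers of several cell types moved at 1 dpci alongside the synthetases, and their part in the rise was not tested. The shares over all entries were again 9.43% higher and 14.5% lower. Of 12 hepatocyte markers 7 fell and 2 (*fga* and *fgb*, fibrinogen chains) rose, and their sum went from 118892 to 214843 CPM in sham to 58133 to 71536 CPM. Of 12 exocrine pancreas markers, genes of a neighbouring organ, 10 fell and none rose, from a sum of 4776 to 37214 CPM to 478 to 5636 CPM. Of 9 macrophage and neutrophil markers 3 rose (*lect2l*, *mfap4* and *mmp13a*) and *cxcr4b* fell, and their sum went from 29.7 to 79.5 CPM to 550 to 2519 CPM, nearly all of it *lect2l* (498 to 2472 CPM at 1 dpci). Of the markers not called, *ptprc* and *marco* were at 4.41 and 7.68 CPM at 1 dpci on average, against 5.88 and 9.69 CPM in sham. *mpx* was at 1.11 against 6.60 CPM. *mmp9* and *cybb*, also not called, went the other way, with 3.63 and 4.65 CPM at 1 dpci against 1.42 and 2.49 CPM in sham. Of 5 red cell markers *hbaa1*, *hbba1* and *slc4a1a* fell, the sum going from 1807 to 13657 CPM in sham to 527 to 997 CPM. Of 5 biliary markers *cldnc* rose, and their sum was 143 to 230.1 CPM in sham and 278 to 339 CPM at 1 dpci. That sum did not reflect a rise shared by the list. *cldnc* averaged 14.3 CPM in sham and 125 CPM at 1 dpci, and *krt8*, not called, 24.3 and 59.9 CPM. *anxa4*, also not called, went the other way, from 125 to 87.8 CPM on average. None of 4 endothelial markers was called, with sums of 17.5 to 28.6 CPM in sham and 21.04 to 28.5 CPM at 1 dpci. Of all these markers only *krt4* and *mpx* were at 0 in any sample, and none was at 0 throughout.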

How the data were processed

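RNA-seq of adult zebrafish livers was analysed in 17 samples, grouped by the condition in their labels. Per the labels and the paper's methods, the authors trimmed reads with cutadapt 1.16, mapped them with HISAT2 2.1.0 and counted them per gene with featureCounts 1.6.0. The deposited table holds raw counts of 8513 entries, and the deposited CPM are each count over its column total, checked to within 0.0005. The sources name different genome builds, Ensembl build 11 in the methods and danRer10 in the submitters' processing notes, so no coordinates were used. The strand setting is not given in the sources used here, nor is the filter behind the 8513 entries. Of the 23 symbols, 20 matched a RefSeq symbol or synonym, and *larsa*, *larsb* and *nars* did not. No columns were left without a sample.

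After filterByExpr and TMM scaling, edgeR 4.0.16 (R 4.3.3) fitted group means to all 17 samples at once, and the 6 pairs of groups were compared by its quasi-likelihood test, adjusted after Benjamini and Hochberg over 8412 entries. The standard error is the log2 fold change divided by the root of its F statistic. Within-sample ratios carried a pseudocount of 0.5 and were compared by exact permutation tests in scipy 1.17.1. Figures were drawn with matplotlib 3.10.9. At 4743533 to 6800961 counts per sample, precision was limited for the mitochondrial entries, and depth covers counting error only.

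The members, the gene lists and the alternatives were chosen with earlier results of these data known. Values per sample are given for the 12 called members with the smallest adjusted p, the mitochondrial partners, and the 3 members not called anywhere with the largest mean CPM. Per-sample values of *larsa*, *gars* and *vars2*, which fall outside this rule, were added after their values were seen. From each list up to 4 genes with the smallest adjusted p were eligible. Named outside this rule were *fabp10a*, *fgb*, *fgg*, *ambp*, *ptprc*, *marco*, *mpx*, *mmp9*, *cybb*, *shmt2* and *eef1e1*. Classes and complex membership follow general knowledge of animal synthetases. The alternatives were DESeq2's size factors or column totals as scaling, mitochondrial entries removed, no filter, DESeq2 1.42.0, edgeR's exact test, a fit of only the groups compared, a replicate block, the 1 dpci samples summed in pairs, the study's thresholds, and each sample left out in turn. Removal of the whole mitochondrial genome was added after seeing the data. Tests were tried on simulated counts for 1 dpci against sham, with 200 of 8389 entries changed. Of changes of 1, 2 and 3 on the log2 scale, 14%, 72% and 88% were called, with 10 false calls. More entries were called in the real data, so these shares need not carry over.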

Additional observations from a re-analysis of the deposited data

Results flagged for a closer look

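Of the 92 combinations of member and group that were looked at for a sample far from the others of its group by Dixon's test at the 95% level, 7 were marked, where chance marks about 1 in 20. *iars* was 35.48 CPM in sham replicate 5, with the next sham sample at 19.53 CPM. *larsa* was 10.33 CPM in sham replicate 1, with the next at 4.561 CPM. At 1 dpci, replicate 1 was the low sample for *aimp2* (155.9 CPM) and for *qars* (19.11 CPM). *rars* was 19.29 CPM in 3 dpci replicate 4. In 7 dpci replicate 1, *larsb* was 18.61 CPM and *aimp1* 30.06 CPM, each the highest of its group.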

How the results depend on the processing

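At 1 dpci against sham, 17 of the 18 cytosolic entries kept a positive log2 fold change in all 27 refits. The exception was *larsa*, at −0.0068 without sham replicate 2 and −0.2218 without 1 dpci replicate 1, and up to 0.618 without sham replicate 1. The other refits gave cytosolic counts within 1.5 times of 11, and 8 to 14 with each sample left out, but 4 with the 1 dpci samples summed in pairs and 5 with the study's thresholds. The mitochondrial count of 1 became 3 with column totals, 0 with only the groups compared, the summed pairs or the study's thresholds, and 0 to 1 with each sample left out. With column totals the log2 fold changes of all entries had a median of 0.84, and calls over all entries rose from 2009 to 3627. The mitochondrial median exceeded that of all entries by 0.82 there. At 3 dpci against 1 dpci the cytosolic count of 11 became 4 with the summed pairs, 7 with the study's thresholds and 4 to 13 with each sample left out. At 7 dpci against 1 dpci the cytosolic count of 14 became 8 with the summed pairs, 7 with the study's thresholds and 10 to 17 with each sample left out. There the mitochondrial count of 2 became 1 with only the groups compared, 0 with the summed pairs, 1 with the study's thresholds and 1 to 2 with each sample left out. Summing pairs leaves 2 samples at 1 dpci, and the study's thresholds ask for a larger fold change, while the cause of the other shifts was not tested. The summed pairs also lowered the calls over all entries, from 2009 to 600 at 1 dpci against sham. Against 1 dpci these calls went from 973 to 144 at 3 dpci and from 1937 to 535 at 7 dpci. Between the deviations of same-numbered samples, 5 of 24 correlations were above 0.1 (−0.26 to 0.42). The highest was that of sham replicate 1 with 7 dpci replicate 1. Differently numbered samples were not compared, so these values do not settle whether the numbers mark a pairing. With the replicate block, 12 cytosolic entries were called at 1 dpci against sham and 1 mitochondrial entry at 7 dpci against 1 dpci. Over the single members, 1217 values stayed on their side of the threshold, 142 lost it, 43 gained it and 2 turned sign. This tally took all members at 1 dpci against sham, but only those already called at 3 and 7 dpci against 1 dpci. In the latter a call could be lost and not gained, so losses and gains are not comparable. The mitochondrial entries rest on 4 to 74 counts per sample, and how far depth limits them was not tested.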
